A study of Mus musculus with 8 samples.

Results

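The genes described here are 10 transcripts by which resident macrophages are recognized, chosen by name with earlier results of these data known: Clec4f, Vsig4, Timd4, Cd5l and Marco, which in mice mark Kupffer cells, and Adgre1, Csf1r, Cd68, C1qa and Mrc1, which macrophages of many tissues share. They are 10 of the 55487 rows of the deposited count table, and all 10 were among the 14353 genes with enough counts to be tested. The study describes the libraries as from subcutaneous tumors of MC38, a mouse colorectal cancer line carrying GFP. By that description the tumors grew in Bmal1+/+ mice, with 4 samples, and in Bmal1-/- mice, also with 4. GFP-positive tumor cells were sorted away and RNA of the remaining stromal vascular fraction was sequenced, with 1 library per sample. Bmal1 is a core activator of the circadian clock. The knockout was carried by every cell of the host and not by the implanted tumor cells, both genotypes came from heterozygous founders, and the labels give no age, sex or hour of collection.

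Kupffer cells are the macrophages that line the sinusoids of the liver, where they clear bacteria, aged blood cells and debris from the portal blood. They depend on CSF1 receptor signaling and on signals from neighbouring endothelial and stellate cells, which keep the resident set of receptors switched on. Tumor-associated macrophages arise largely from blood monocytes and carry the shared macrophage transcripts, but are not known for the lectin Clec4f.

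Several values of the whole series bear on every comparison. Total counts were between 14054825 and 18449143 per library, so that 3 counts, taken as the detection floor, equalled 0.167 to 0.213 CPM (counts scaled to the normalized library total), which covers counting error only. Bmal1 itself, listed as Arntl, did not exceed 2.71 CPM in Bmal1+/+ samples, yet reached at least 30.1 CPM in every sample labelled Bmal1-/-. This is opposite to the genotype, so the second group is called the libraries labelled Bmal1-/- throughout. Dbp, an output gene of the clock that BMAL1 activates, went the other way from Arntl. It had a mean of 94.8 CPM under Bmal1+/+ and of 4.74 CPM under the other label (log2 fold change -4.32, SE 0.25, adjusted p = 4.11e-06, edgeR). Gene-level counts do not show which exons were read. Neither an exchange of labels nor a difference in hour of collection, which the labels do not give, was tested. Every direction below is given by label and would turn with an exchange of labels. Xist, the RNA of the inactive X chromosome, had a mean of 942 CPM (SD 111, n = 4) under the Bmal1+/+ label and of 0.343 CPM (SD 0.276) under the other, while the Y-linked genes Ddx3y, Kdm5d, Uty and Eif2s3y were at 0 in every Bmal1+/+ library and had means from 14.7 to 59.4 CPM where the label was Bmal1-/-. Genotype label and sex of the mice therefore cannot be told apart in any result below. The tissue is labelled tumor, yet 12 hepatocyte transcripts summed to 105590.5 to 118984 CPM in Bmal1+/+ libraries and to 66386 to 76399.9 CPM in the others. Albumin, Alb, alone averaged 69269.9 CPM and 16144 CPM. Whether the libraries hold RNA of liver rather than of tumor stroma was not tested. The Kupffer cell transcripts below are therefore not a finding about tumor stroma. The intestinal regulators Cdx1 and Cdx2 were at 0 in all 8. Tumor cells had been sorted away, so these zeros do not bear on the tissue label. No label ties a sample to 1 animal, so p-values measure the spread between these libraries.

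The promoters of the 5 Kupffer cell genes are shown because 4 of the 5 genes were called lower and because BMAL1 acts through a short DNA motif. The sequences are RefSeq windows of 300 bases on GRCm38.p6, from 250 bases before to 50 bases after the annotated start, written 5′ to 3′ on the strand of the gene. Capitals mark GAGGAA or GGAAGT, overlapping pieces of the site preferred by PU.1, the pioneer factor of macrophages encoded by Spi1, on either strand. The windows are chr6:83656067-83656366 on the minus strand for Clec4f, chrX:96293389-96293688 on the minus strand for Vsig4, chr11:46810549-46810848 on the plus strand for Timd4, chr3:87357631-87357930 on the plus strand for Cd5l and chr1:120504975-120505274 on the minus strand for Marco.
Clec4f: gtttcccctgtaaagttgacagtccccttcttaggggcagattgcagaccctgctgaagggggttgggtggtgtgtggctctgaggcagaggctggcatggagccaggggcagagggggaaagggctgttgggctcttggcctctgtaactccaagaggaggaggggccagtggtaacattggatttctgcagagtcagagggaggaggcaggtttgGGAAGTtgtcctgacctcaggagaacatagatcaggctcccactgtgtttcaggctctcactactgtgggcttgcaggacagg
Vsig4: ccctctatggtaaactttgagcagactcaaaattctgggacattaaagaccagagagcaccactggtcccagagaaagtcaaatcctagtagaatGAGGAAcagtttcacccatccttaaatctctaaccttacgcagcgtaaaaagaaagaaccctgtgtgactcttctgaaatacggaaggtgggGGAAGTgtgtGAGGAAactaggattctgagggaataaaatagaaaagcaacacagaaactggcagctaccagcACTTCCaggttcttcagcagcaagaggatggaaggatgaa
Timd4: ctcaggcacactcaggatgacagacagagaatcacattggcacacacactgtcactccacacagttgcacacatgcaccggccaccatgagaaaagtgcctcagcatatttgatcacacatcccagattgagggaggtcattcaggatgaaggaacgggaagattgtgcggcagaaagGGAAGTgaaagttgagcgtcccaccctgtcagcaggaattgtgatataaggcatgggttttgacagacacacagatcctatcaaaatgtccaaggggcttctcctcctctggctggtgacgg
Cd5l: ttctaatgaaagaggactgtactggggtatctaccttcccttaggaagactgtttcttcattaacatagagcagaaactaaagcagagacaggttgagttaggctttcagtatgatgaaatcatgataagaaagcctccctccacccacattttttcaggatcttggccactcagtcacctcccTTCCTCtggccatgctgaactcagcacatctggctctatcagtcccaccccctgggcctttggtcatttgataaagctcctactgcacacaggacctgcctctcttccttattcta
Marco: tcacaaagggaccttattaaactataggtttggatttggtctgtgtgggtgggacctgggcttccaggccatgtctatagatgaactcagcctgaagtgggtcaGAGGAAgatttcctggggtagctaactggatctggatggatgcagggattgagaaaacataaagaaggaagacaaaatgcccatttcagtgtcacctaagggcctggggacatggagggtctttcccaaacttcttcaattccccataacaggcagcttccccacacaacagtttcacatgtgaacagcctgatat
At least 1 of these motifs was present in all 7 of the 10 genes that had a window, against 43.4% of 32851 mouse promoters of the same length. GAGGAA alone was present in 5 of the 7, against 28.3% of all promoters, and GGAAGT in 5 of the 7, against 23.8%. Vsig4 held 4 matches, starting 155, 63 and 53 bases before the start site and, on the opposite strand, 11 bases after it. The single match of Clec4f began 33 bases before its start and that of Timd4 72 bases before. CACGTG, the E-box bound by BMAL1 with CLOCK, was in 0 of the 7 windows and in 7.15% of all promoters. A match is only a run of letters, and its absence concerns only these windows.

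The first question was whether the macrophage transcripts differed in level between host genotypes. Fitted log2 fold changes were negative for all 10, from -1.55 to -0.64. By edgeR's quasi-likelihood test, adjusted by Benjamini-Hochberg over all 14353 genes, 9 of the 10 were called lower at adjusted p below 0.05 and 0 were called higher, where 16.2% of all genes tested were called lower and 14.9% higher, or 31.1% in either direction. The median log2 fold change was -1.07 over the 10 genes and 0.02 over all genes tested. With the study's own criterion, an absolute log2 fold change above 1 with an unadjusted p below 0.05, 4 of the 10 passed, namely Vsig4, Timd4, Adgre1 and Cd68, all lower, against 8.71% of all genes lower and 5.41% higher by it. In 6 of the 10 every library labelled Bmal1-/- lay below every Bmal1+/+ library, as did 16.8% of all genes. In bulk RNA, fewer macrophages and less of the transcript per macrophage cannot be told apart.

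Among the Kupffer cell genes, Clec4f encodes a C-type lectin that in the mouse is found almost solely on Kupffer cells. Clec4f (ENSMUSG00000014542, GRCm38 chromosome 6, 83644542 to 83656187, minus strand) was at 203, 161, 160.4 and 177 CPM in Bmal1+/+ replicates 1 to 4 and at 90.6, 85.9, 87.2 and 143 CPM in the libraries labelled Bmal1-/-. The groups did not overlap, and replicate 4 of the second group stood near the lowest Bmal1+/+ library. The log2 fold change was -0.78 (SE 0.18, adjusted p = 0.00863 by edgeR's quasi-likelihood test).

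Timd4 (ENSMUSG00000055546, chromosome 11, 46810800 to 46844332, plus strand) encodes Tim-4, a phosphatidylserine receptor by which resident macrophages take up dying cells. It was at 13.9, 11.4, 11.7 and 13.9 CPM in Bmal1+/+ libraries and at 4.00, 2.70, 3.27 and 8.21 CPM in the others. No value overlapped, and the log2 fold change of -1.48 (SE 0.31, adjusted p = 0.0055, edgeR) was the strongest among the 9 genes called.

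Vsig4 (ENSMUSG00000044206, X chromosome, 96247203 to 96293438, minus strand) encodes CRIg, the complement receptor with which Kupffer cells catch opsonized bacteria. It was at 61.8, 47.9, 38.6 and 65.3 CPM in Bmal1+/+ libraries and at 18.8, 14.8, 15.4 and 39.3 CPM in those labelled Bmal1-/-. Replicate 4 of the latter just passed Bmal1+/+ replicate 3, while the others lay far below. Vsig4 fell with a log2 fold change of -1.27 (SE 0.31, adjusted p = 0.013, edgeR).

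Cd5l (ENSMUSG00000015854, chromosome 3, 87357881 to 87371073, plus strand) encodes AIM, a scavenger protein that macrophages secrete into the blood. Its values were 187, 149.8, 173 and 161 CPM in Bmal1+/+ libraries and 74.0, 64.5, 68.8 and 150.0 CPM in those labelled Bmal1-/-. Replicate 4 just passed the lowest Bmal1+/+ library, 149.98 against 149.75 CPM, while the rest lay far below. Cd5l fell with a log2 fold change of -0.91 (SE 0.25, adjusted p = 0.0225, edgeR), and this call was lost when Bmal1+/+ replicate 1 or replicate 1, 2 or 3 of the other group was left out, with adjusted p up to 0.0611.

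Marco (ENSMUSG00000026390, chromosome 1, 120474538 to 120505024, minus strand) encodes a scavenger receptor for bacteria and particles that is induced by inflammatory stimuli. It had the lowest mean of the 10 in Bmal1+/+ libraries, at 10.1, 4.61, 24.9 and 4.12 CPM in Bmal1+/+ libraries and at 1.62, 0.831, 1.21 and 11.1 CPM in the others. The raw counts behind these values were 167, 72, 370 and 74 against 26, 12, 17 and 164. The groups overlapped through replicate 4 alone, and the log2 fold change of -1.55 (SE 0.84, adjusted p = 0.189, edgeR) did not pass. Without that library it was -3.13 (SE 0.70, adjusted p = 0.00866).

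**Figure D1:**
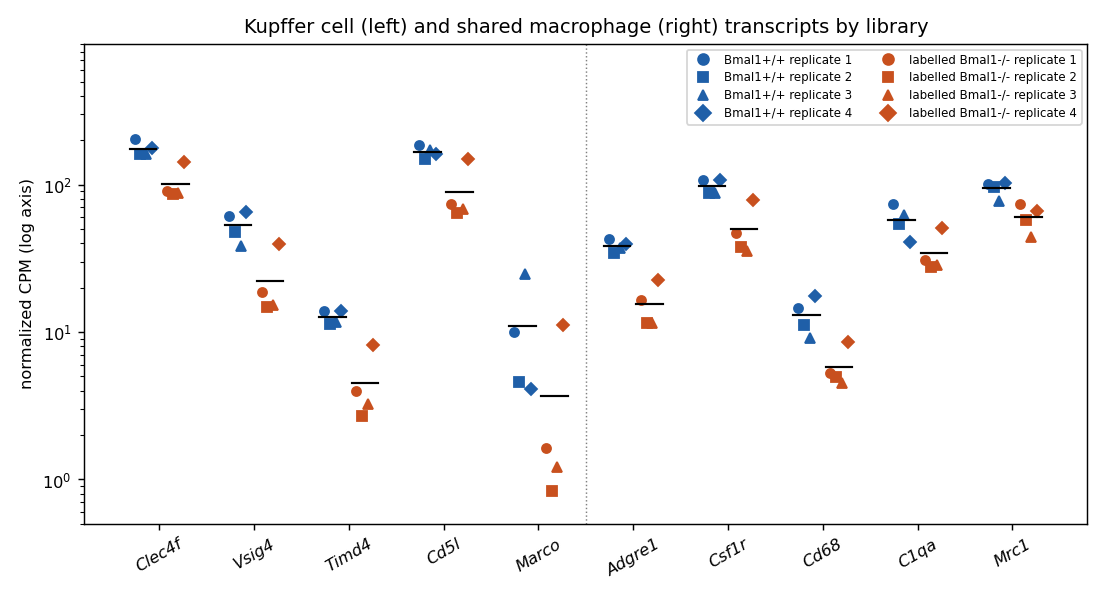
Normalized CPM on a log axis of the 10 genes in each of the 8 libraries, blue for Bmal1+/+ and orange for labelled Bmal1-/-, with a marker shape for each replicate number and a black bar at the mean of each group. Replicate 4 labelled Bmal1-/- (orange diamonds) was the highest of its group in 9 genes, reaching 150.0 CPM for Cd5l where the other 3 were between 64.5 and 74.0 CPM.

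The shared macrophage genes fell as well, all 5 of 5. Adgre1 (ENSMUSG00000004730, chromosome 17, 57358691 to 57483527, plus strand) encodes F4/80, the adhesion receptor by which mouse macrophages are stained. It was at 42.6, 34.4, 37.2 and 39.5 CPM in Bmal1+/+ libraries and at 16.5, 11.6, 11.5 and 22.5 CPM in those labelled Bmal1-/-. The groups were well apart, with a log2 fold change of -1.31 (SE 0.21) and the lowest adjusted p of the 10, 0.00142 by edgeR.

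Csf1r (ENSMUSG00000024621, chromosome 18, 61100598 to 61132149, plus strand) encodes the receptor for the survival factors CSF1 and IL-34. It was at 108, 87.5, 88.0 and 107 CPM against 47.2, 38.0, 35.3 and 78.2 CPM. The groups did not overlap, and the log2 fold change was -0.97 (SE 0.23, adjusted p = 0.0114, edgeR). Csf1r overlaps Hmgxb3 on the opposite strand, and the sources used here do not say whether counting used the strand, so reads of the pair may have been mixed.

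Cd68 (ENSMUSG00000018774, chromosome 11, 69664213 to 69666153, minus strand) encodes a glycoprotein of the lysosome and late endosome. Its values were 14.5, 11.1, 9.14 and 17.5 CPM against 5.25, 4.99, 4.48 and 8.61 CPM. The closest pair, 9.14 and 8.61 CPM, nearly touched, and the log2 fold change was -1.17 (SE 0.26, adjusted p = 0.0078, edgeR).

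Mrc1 (ENSMUSG00000026712, chromosome 2, 14229392 to 14332057, plus strand) encodes the mannose receptor CD206, which is also made by the endothelium of liver sinusoids. It was at 101, 96.8, 77.7 and 103 CPM against 73.9, 57.2, 44.3 and 66.5 CPM, with no overlap. Its log2 fold change of -0.64 (SE 0.16, adjusted p = 0.0141, edgeR) was the smallest of the 10, and it was the only gene in which replicate 4 was not the highest library labelled Bmal1-/-.

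C1qa (ENSMUSG00000036887, chromosome 4, 136895917 to 136898803, minus strand) encodes a chain of C1q, the complement component that binds immune complexes and dying cells. It was at 73.4, 54.4, 62.1 and 40.8 CPM against 30.8, 27.6, 28.5 and 51.1 CPM. Replicate 4 labelled Bmal1-/- exceeded Bmal1+/+ replicate 4, and the log2 fold change was -0.74 (SE 0.23, adjusted p = 0.036, edgeR). This was the weakest call, lost under 8 of 18 alternatives, including leaving out any library other than Bmal1+/+ replicate 4 and replicate 4 labelled Bmal1-/-, with adjusted p up to 0.0976.

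Replicate 4 labelled Bmal1-/-, so numbered in its description but titled KO6, stood apart over the set as a whole. It exceeded the mean of the other 3 libraries with its label by 1.63 times for Clec4f, 1.70 times for Adgre1, 2.17 times for Cd5l, 2.47 times for Timd4 and 9.11 times for Marco, but by 1.14 times for Mrc1. The same library held 7751 CPM of Saa1, an acute-phase protein of the liver, where the other 3 averaged 13.5 CPM, and 15.2 CPM of the neutrophil gene S100a8 where they averaged 0.641 CPM. Their part in the macrophage values was not tested. Stab2 of sinusoidal endothelium and Lrat of stellate cells were at 0.993 and 1.01 times the mean of the other 3 in it. Without this library all 10 genes were called lower, each of the remaining 3 libraries lay below every Bmal1+/+ library for all 10, the median log2 fold change was -1.34 and 7 of the 10 passed the study's criterion. In that fit 2502 of 14775 genes tested were called lower and 2212 higher, and 2344 passed the study's criterion in either direction. The share of all genes without overlap was not counted with this library left out. The library was also singled out from these same values. The separation of all 10 is therefore not read as a result.

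**Figure D2:**
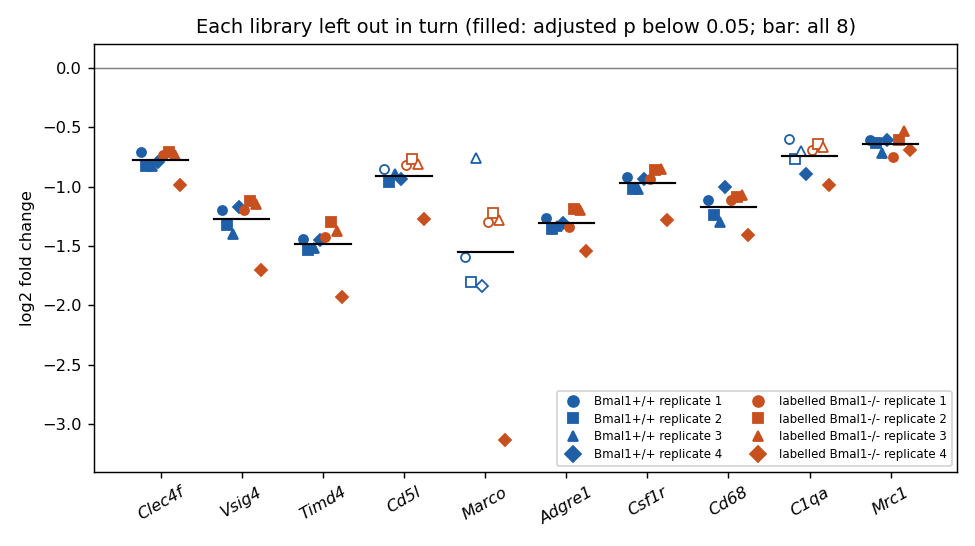
Log2 fold change of each gene, libraries labelled Bmal1-/- over Bmal1+/+, when each library was left out in turn, with filled markers for adjusted p below 0.05 and a black bar for the fit on all 8. Every value was negative, and leaving out replicate 4 labelled Bmal1-/- moved Marco from -1.55 to -3.13.

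The order of the 10 transcripts by level was compared on the authors' FPKM, which divides by transcript length. In Bmal1+/+ libraries Cd5l led at 81.5 ± 9.35 FPKM (SD, n = 4), followed by Clec4f at 61.8 ± 7.70 and C1qa at 55.0 ± 13.95, whose ranges overlapped one with the next. Vsig4 followed at 29.5 ± 6.78, apart from C1qa above and from Mrc1 below. Mrc1 at 12.5 ± 1.41 and Csf1r at 12.5 ± 1.498 FPKM could not be ordered. Adgre1 at 9.57 ± 0.991 was apart from Csf1r above and Cd68 below, while Cd68 at 6.25 ± 1.73, Timd4 at 5.79 ± 0.650 and Marco at 5.42 ± 4.88 overlapped. Thus the Kupffer cell genes were spread over the order. Cd5l and Clec4f were above every shared macrophage gene by mean, though the range of Clec4f overlapped that of C1qa. Timd4 and Marco ranked 9 and 10 of the 10. The order of the means was identical in the libraries labelled Bmal1-/-, from Cd5l at 43.9 ± 18.9 FPKM to Marco at 1.82 ± 2.40 FPKM, but there the only neighbours with separate ranges were C1qa at 33.3 ± 9.97 and Vsig4 at 12.4 ± 6.22.

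**Figure D3:**
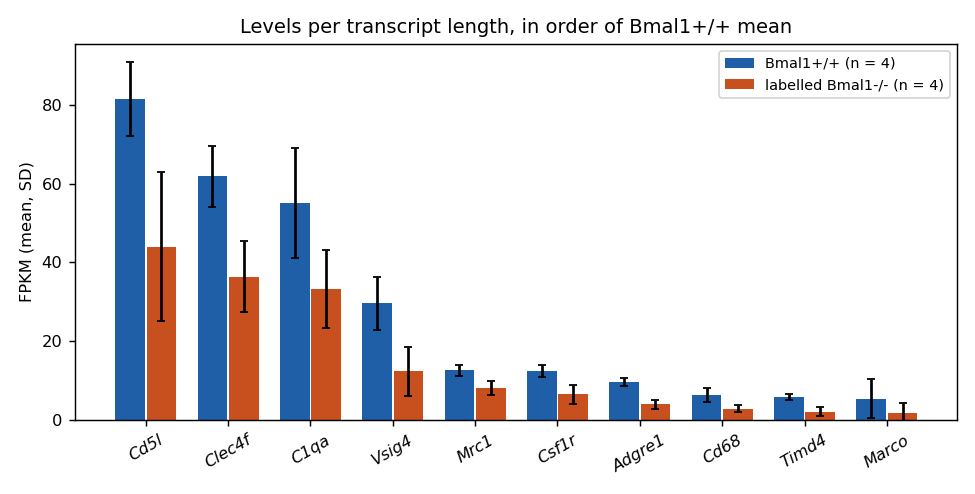
Mean FPKM of the 10 genes in order of their Bmal1+/+ mean, blue for Bmal1+/+ and orange for labelled Bmal1-/-, with error bars of 1 SD over 4 libraries. Cd5l at 81.5 FPKM and Clec4f at 61.8 FPKM are the tallest Bmal1+/+ bars, and the orange bars follow the same order.

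A further question was whether Kupffer cell transcripts fell by more than the shared macrophage transcripts. The log2 ratio of the summed CPM of the 5 Kupffer cell genes to that of the 5 shared genes was 0.49, 0.40, 0.58 and 0.45 in Bmal1+/+ libraries and 0.12, 0.28, 0.50 and 0.63 in the others. These ranges overlapped, and the means of 0.48 ± 0.07 and 0.38 ± 0.23 (SD, n = 4 each) differed by -0.10. Clec4f and Cd5l made up most of the Kupffer sum. The median log2 fold change was -1.27 over the 5 Kupffer cell genes and -0.97 over the 5 shared genes. Ratios between single genes depended on the reference. The log2 ratio to Adgre1 of the same library was higher in every library labelled Bmal1-/- than in any Bmal1+/+ library for Clec4f, by 0.55 on average, for Mrc1, by 0.71, for C1qa, by 0.61, and for Csf1r, by 0.32. For Cd5l it differed by 0.37, for Cd68 by 0.19, for Vsig4 by 0.00, for Timd4 by -0.25 and for Marco by -0.64, with overlapping values. With Csf1r as the reference the differences were 0.23 for Clec4f, 0.28 for C1qa and 0.38 for Mrc1, and with Cd68 they were 0.36, 0.41 and 0.51, all with overlapping groups. Against Csf1r only Timd4, by -0.58, and Adgre1, by -0.32, had separate groups, and against Cd68 no gene did.

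Clec4f was set against the first gene of 5 lists in a set of ratios chosen after the values were seen. Each was tested by a two-sided exact permutation test over 70 assignments, of which the smallest possible p is 0.0286. The fold changes of these genes were already known. The p-values therefore describe separations already seen and give no independent support. Against Adgre1 the log2 count ratio rose from 2.19 ± 0.06 in Bmal1+/+ libraries to 2.74 ± 0.22 (SD, n = 4 each, exact permutation p = 0.0286, 0.0358 adjusted over the 5 comparisons). Against Ptprc, the pan-leukocyte phosphatase CD45, it rose from 3.01 ± 0.20 to 3.69 ± 0.47 (adjusted exact permutation p = 0.0358). These groups did not overlap, but when any 1 Bmal1+/+ library was left out the unadjusted exact permutation p was 0.0571 for Adgre1 and 0.0571 to 0.0857 for Ptprc, and it was 0.0571 for Ptprc without replicate 3 labelled Bmal1-/-. Against Stab2, a scavenger receptor of liver sinusoidal endothelium, the ratio fell from 1.15 ± 0.15 to 0.41 ± 0.43 (adjusted exact permutation p = 0.0358), and against albumin, Alb, it rose from -8.63 ± 0.23 to -7.33 ± 0.58 (adjusted exact permutation p = 0.0358). Neither gene stands for its list, since Alb was the only 1 of 12 hepatocyte genes called lower and 3 were higher, such as Apoa1 at a log2 fold change of 1.58, and Stab2 changed least of 10 sinusoidal genes, of which 6 were lower. Adgre1 and Ptprc had the lowest log2 fold changes of their lists, -1.31 and -1.36. Other pan-leukocyte genes, given after their values were seen, lay on both sides of Clec4f at -0.78. Cd52 at -1.02, Rac2 at -0.97 and Cd53 at -0.94 fell more, Arhgdib at -0.53 and Coro1a at -0.30 fell less, and Lcp1 was at 0.20. The Stab2 ratio had an exact permutation p of 0.0571 when any 1 Bmal1+/+ library was left out. Against Lrat, the retinol-storing enzyme of stellate cells, it was 2.80 ± 0.46 and 3.05 ± 0.38 with overlapping groups (adjusted exact permutation p = 0.486). Leaving out each library in turn kept all 5 differences in sign, from 0.49 to 0.64 for Adgre1, 0.45 to 0.79 for Ptprc, -0.91 to -0.61 for Stab2, 1.02 to 1.42 for Alb and 0.03 to 0.40 for Lrat.

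**Figure D4:**
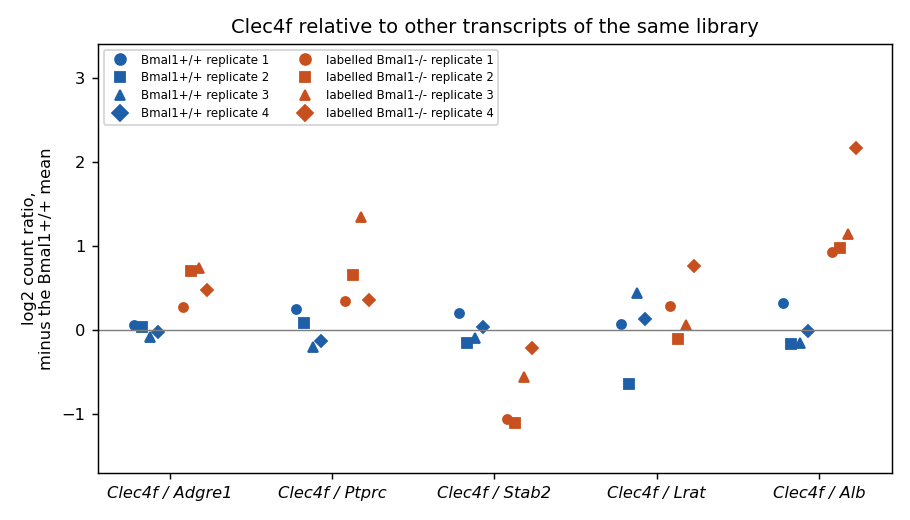
Log2 ratio of Clec4f counts to those of 5 other genes in each library, with the Bmal1+/+ mean of each ratio set to 0, blue for Bmal1+/+ and orange for labelled Bmal1-/-. The orange points lie above the blue for Adgre1, Ptprc and Alb, below them for Stab2, and among them for Lrat.

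The other genes known for Kupffer cells moved in the same direction. Of 10 listed, 9 were tested, 8 were called lower and 0 higher, with a median log2 fold change of -0.98, and the count called lower was 5 when Bmal1+/+ replicate 1, Bmal1+/+ replicate 2 or replicate 2 labelled Bmal1-/- was left out. Folr2, the folate receptor beta, was at 15.5, 12.7, 15.7 and 20.2 CPM against 6.18, 5.89, 5.20 and 9.77 CPM, without overlap, with a log2 fold change of -1.25 (SE 0.22, adjusted p = 0.00242, edgeR). Slc40a1, the iron exporter ferroportin by which Kupffer cells return iron from aged red cells, fell from 168 ± 25.7 to 86.4 ± 12.6 CPM, with a log2 fold change of -0.96 (SE 0.15, adjusted p = 0.00114). Il18bp, which neutralizes IL-18, had -1.28 (SE 0.30, adjusted p = 0.0106) and the platelet-receptor lectin Clec1b -0.51 (SE 0.16, adjusted p = 0.0319). The Clec1b call was lost under 7 of 18 alternatives, among them the replicate block, no filter and leaving out Bmal1+/+ replicate 1 or 2 or replicate 1, 2 or 3 labelled Bmal1-/-, with adjusted p up to 0.0879. The hemoglobin scavenger receptor Cd163, which the naming rule did not select and is given after its values were seen as the only tested gene of the list without a call, was at 46.5 ± 1.91 against 41.5 ± 21.6 CPM (log2 fold change -0.16, SE 0.30, adjusted p = 0.712).

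Of the ligands and niche signals, 3 of 6 tested were lower and 0 higher, with a median of -0.81, and 5 were lower without Bmal1+/+ replicate 3. Csf1, the ligand of Csf1r, was at 15.1, 9.09, 11.6 and 9.35 CPM against 5.00, 4.36, 3.63 and 5.22 CPM, a log2 fold change of -1.31 (SE 0.20, adjusted p = 0.00121, edgeR). Receptor and ligand were thus both lower, and neither pair of groups overlapped. Tgfb1, a cytokine that Kupffer cells need for their identity, had a log2 fold change of -1.07 (SE 0.15, adjusted p = 0.000661). Bmp2, made by sinusoidal endothelium, had -0.92 (SE 0.12, adjusted p = 0.000457). Replicate 4 labelled Bmal1-/- lay close to the others of its label here, with 5.22 CPM of Csf1 where they had up to 5.00, 9.16 CPM of Tgfb1 where they had up to 7.90, and 24.9 CPM of Bmp2 where they had up to 28.2.

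Of the macrophage transcription factors, 3 of 10 were lower and 0 higher, with a median of -0.76, and 6 were lower without replicate 4 labelled Bmal1-/-. Irf8, which macrophages and dendritic cells need for their development, fell with a log2 fold change of -1.23 (SE 0.20, adjusted p = 0.00171, edgeR). The other calls were Maf at -0.86 (SE 0.13, adjusted p = 0.000934) and Zeb2 at -0.70 (SE 0.22, adjusted p = 0.0389). The Zeb2 call was lost under 7 of 18 alternatives, without a filter and without any 1 library other than Bmal1+/+ replicate 2 and replicate 4 labelled Bmal1-/-, with adjusted p up to 0.093. Spi1, whose product PU.1 binds the motif searched above, was at 8.75 ± 1.61 against 6.39 ± 2.38 CPM and did not pass (log2 fold change -0.45, SE 0.25, adjusted p = 0.201).

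Of 18 other genes that macrophages in general express, 17 were tested, 11 were lower and 0 higher, with a median of -0.82. The count of 11 was 16 without replicate 4 labelled Bmal1-/- and 7 without Bmal1+/+ replicate 1 or without replicate 2 or 3 labelled Bmal1-/-. Lyz2, the macrophage lysozyme, fell from 104 ± 12.2 to 45.3 ± 14.05 CPM (log2 fold change -1.20, SE 0.20, adjusted p = 0.00169, edgeR). The receptors for apoptotic cells Axl and Mertk had log2 fold changes of -1.19 (SE 0.19, adjusted p = 0.00167) and -0.79 (SE 0.13, adjusted p = 0.00186). C1qb, the partner chain of C1qa, had -0.84 (SE 0.23, adjusted p = 0.019), a call lost without Bmal1+/+ replicate 1 or replicate 1, 2 or 3 labelled Bmal1-/-, with adjusted p up to 0.0552. Mpeg1, which encodes the pore protein perforin-2 and is named here after its values were seen, was an exception in sign at 148, 97.1, 96.7 and 126 CPM against 108, 131, 134 and 389 CPM. Its groups overlapped, the highest value was again replicate 4, and the log2 fold change of 0.70 (SE 0.38, adjusted p = 0.19) did not pass.

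**Figure D5:**
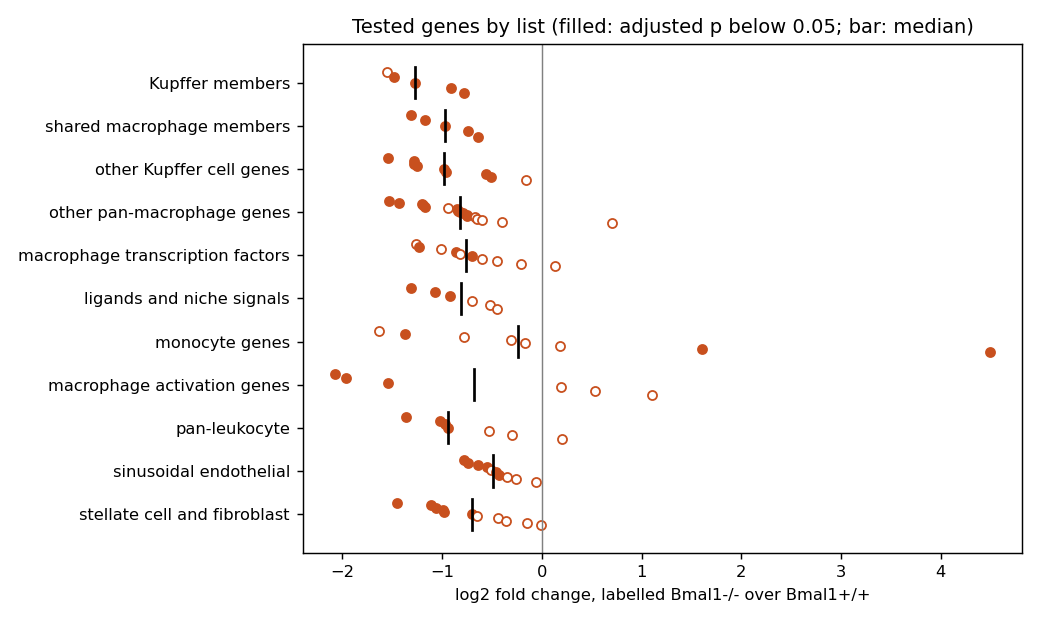
Log2 fold change, libraries labelled Bmal1-/- over Bmal1+/+, of each tested gene in 11 lists, with filled points for adjusted p below 0.05 and a black bar at the median of each list. The medians of the first 5 lists from the top lie between -1.27 and -0.76, and the lone point far to the right is Cx3cr1, at 4.49.

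Monocyte transcripts had group means below 5 CPM, except Plac8 in Bmal1+/+ libraries and Nr4a1 in both groups. Of 11 monocyte genes, 8 were tested, 1 was lower and 2 were higher, with a median of -0.24. The inflammatory monocyte antigen gene Ly6c2 was at 0.64 ± 0.267 against 0.771 ± 0.457 CPM and was too low to be tested. The fractalkine receptor gene Cx3cr1 had 6, 3, 2 and 3 raw counts in Bmal1+/+ libraries, at the floor or near it, and 44, 64, 51 and 135 in those labelled Bmal1-/-. No library of one group came near the other, with a fitted log2 fold change of 4.49 (SE 0.50, adjusted p = 0.000187, edgeR), whose size depends on the prior count. Nr4a1, a nuclear receptor of patrolling monocytes that is also an immediate-early gene, was at 13.6, 11.5, 21.6 and 16.4 CPM against 104, 33.0, 41.0 and 13.4 CPM. Its log2 fold change of 1.61 (SE 0.51, adjusted p = 0.0383) was lost under 9 of 18 alternatives, among them leaving out replicate 1 or 3 labelled Bmal1-/- or any one Bmal1+/+ library. Plac8 fell, with a log2 fold change of -1.37 (SE 0.34, adjusted p = 0.0139).

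Of 14 macrophage activation genes, 6 were tested, 3 were lower and 0 higher, with a median of -0.68. Cd86, a costimulatory ligand for T cells, was at 7.16, 6.27, 4.03 and 7.29 CPM against 1.25, 1.18, 0.925 and 2.51 CPM, with no overlap and a log2 fold change of -2.07 (SE 0.32, adjusted p = 0.00132, edgeR). The cytokine gene Il1b had -1.96 (SE 0.36, adjusted p = 0.00306), and Cd80, the related costimulatory ligand, -1.54 (SE 0.45, adjusted p = 0.0276) at a mean of only 1.34 and 0.457 CPM. The Cd80 call was lost under 7 of 17 alternatives, without a filter and without any 1 library other than Bmal1+/+ replicate 2 and replicate 4 labelled Bmal1-/-, with adjusted p up to 0.0738. Spp1, the secreted phosphoprotein osteopontin, named here after its values were seen, went the other way at 29.7, 25.5, 22.2 and 29.0 CPM against 41.2, 33.4, 31.7 and 122 CPM. Its groups did not overlap, and with a log2 fold change of 1.10 (SE 0.41, unadjusted p = 0.0219, adjusted p = 0.0646, edgeR) it passed the study's criterion but not the adjusted threshold. In this list 1 gene was called higher by DESeq2, by the likelihood ratio test and without replicate 2 or 3 labelled Bmal1-/-. Nos2, the inducible nitric oxide synthase, was near 0 and was not tested. Arg1, often used as a marker of alternative activation but also the urea-cycle arginase of hepatocytes, made up most of the summed level of the list, which ranged from 1157 to 1552 CPM against 1258 to 1758 CPM.

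Other cell types whose RNA the fraction could hold changed to differing degrees, and their part in the macrophage values was not tested. The pan-leukocyte gene Ptprc was at 21.2, 18.95, 22.8 and 24.1 CPM against 8.87, 6.79, 4.27 and 13.8 CPM, a log2 fold change of -1.36 (SE 0.29, adjusted p = 0.00631, edgeR). Of the 7 pan-leukocyte genes 4 were lower and 0 higher, their sums were 114 to 168 CPM against 106 to 148 CPM, and 2 were lower when any library other than replicate 4 labelled Bmal1-/- was left out. Lymphoid, dendritic and neutrophil lists had lower sums than the Kupffer cell or the shared macrophage genes. Sums were 5.84 to 8.13 against 1.14 to 3.93 CPM for 9 T and NK cell genes and 4.29 to 6.92 against 4.68 to 6.17 CPM for 6 B and plasma cell genes. They were 12.1 to 16.0 against 9.70 to 15.4 CPM for 8 dendritic cell genes and 7.64 to 10.7 against 2.92 to 47.6 CPM for 8 neutrophil genes. The most abundant single genes of these lists by Bmal1+/+ mean were Zbtb46, at 6.47 against 7.96 CPM, Csf3r, at 4.83 against 3.28 CPM, and Clec9a, at 4.59 against 2.85 CPM. A single gene could exceed a macrophage gene, as Zbtb46 exceeded Cd68, at a mean of 5.83 CPM, under the Bmal1-/- label. Of these 4 lists only the dendritic cell gene Itgax had a call, with a log2 fold change of -2.24 (SE 0.37, adjusted p = 0.00184).

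Transcripts of the cells that neighbour Kupffer cells in the liver were abundant. Of 10 sinusoidal endothelial genes 6 were lower and 0 higher, with a median of -0.48 and sums of 513 to 575 against 326 to 462 CPM, and the count was 3 without Bmal1+/+ replicate 1, Bmal1+/+ replicate 2 or replicate 2 or 4 labelled Bmal1-/-. Stab2 itself was at 78.8 ± 1.52 against 75.5 ± 12.6 CPM (log2 fold change -0.06, SE 0.12, adjusted p = 0.742, edgeR), whereas Fcgr2b, the inhibitory Fc receptor, had -0.78 (SE 0.11, adjusted p = 0.000664). Of 11 stellate cell and fibroblast genes 6 were lower and 0 higher, with a median of -0.70 and sums of 326 to 425 against 187 to 250.4 CPM. Lrat was at 27.8, 36.05, 16.9 and 23.3 CPM against 10.7, 13.3, 12.0 and 12.1 CPM, a log2 fold change of -1.11 (SE 0.21, adjusted p = 0.00331). Of 12 hepatocyte genes 1 was lower and 3 were higher, with a median of -0.01. The gene that was lower was Alb, which averaged 69269.9 CPM against 16144 CPM with a log2 fold change of -2.10 (SE 0.20, adjusted p = 6.8e-05). Of 6 erythroid genes 5 were tested, 3 were lower and 1 higher, of 6 platelet genes 2 were tested and neither was called, and of 8 epithelial and tumor cell genes 5 were tested, 2 were lower and 0 higher.

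Variation of the 10 genes within a label was described by correlation. After the mean of each label was removed, log2 CPM of the 45 gene pairs correlated over the 8 libraries with a median Pearson r of 0.786, between 0.0392 and 0.968. This describes libraries that share depth and scaling and of which replicate 4 labelled Bmal1-/- is the most distant. It was the highest of its label in 9 of the 10 genes, and no correlation given here was computed without it. Pairs over all genes were not computed. Within Bmal1+/+, replicate 3 had the highest Marco, at 24.9 CPM, but the lowest Cd68, at 9.14 CPM, and Vsig4, at 38.6 CPM. Over the 8 libraries the genes outside the 10 most like their mean log2 CPM were Itgb2 with a Pearson r of 0.995, C1qb with 0.993, Zbp1 with 0.993, Parp12 with 0.992 and Ctsc with 0.991. With label means removed these values were 0.985, 0.981, 0.974, 0.974 and 0.973. Itgb2 encodes the beta chain of the leukocyte integrins and Ctsc the lysosomal protease cathepsin C. Log2 fold changes of the 5 ran from -2.13 for Zbp1 to -0.70 for Parp12. Their direction is no separate result, because the genes were picked by likeness over both labels, which includes the difference between labels.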

How the data were processed

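RNA described as from the GFP-negative stromal vascular fraction of MC38 tumors was sequenced in 4 samples labelled Bmal1+/+ and 4 labelled Bmal1-/-. Paired-end reads had been aligned by the authors to GRCm38 (Ensembl annotation) using HISAT2 and fragments assigned to genes using StringTie. The authors deposited whole-number counts, not normalized, and FPKM values, scaled to transcript length and library total by the authors. The submitters' processing notes instead name TopHat2 2.0.6 and CASAVA 1.8. Whether counting used strand is not given in the sources used here.

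From the counts, TMM-normalized CPM, log2 fold changes and p-values were obtained from edgeR 4.0.16 under R 4.3.3 (filterByExpr, quasi-likelihood test, Benjamini-Hochberg adjustment over 14353 genes, threshold 0.05). Each standard error is the log2 fold change over the root of its F statistic. FPKM was used only to order levels between genes. Gene symbols and coordinates were taken from a GENCODE annotation of GRCm38 that matched 99.4% of 55487 identifiers. Total counts ranged from 14054825 to 18449143 per library, a depth at which 3 counts is the floor. No libraries were duplicates, as the chi-square per degree of freedom of same-label pairs was at least 18.0.

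The 10 genes and all lists were chosen with earlier results of these data known, so no list is independent evidence of its direction, and lists are described by counts and medians without a set test. Named genes are the 10, the first gene and up to 3 tested genes of lowest adjusted p in each list, the 5 genes most like the mean of the 10, and checks of label and tissue. The listed hepatocyte and other cell type genes served as background markers. Promoter windows were available for 7 of the 10 genes and not used here for Adgre1, Csf1r and C1qa. Alternatives were DESeq2 1.42.0, limma-voom (limma 3.58.1), 4 other scalings, 2 filters on low counts, the likelihood ratio test, the replicate number as a block, and leaving out each of 8 libraries. The fit was tested on simulated data with 200 changed genes among 14179, of which it recovered 87.5%, with 4.89% of calls false. The simulated data held no library that stood apart and far fewer changed genes than the 31.1% called here. Those rates therefore need not hold for the real libraries. Exact permutation tests enumerated all assignments in Python 3.11.15, scipy 1.17.1 adjusted their p-values, and figures used matplotlib 3.10.9.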

Additional observations from a re-analysis of the deposited data

Results flagged for a closer look

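In 5 of the 20 groups of 4 libraries formed by the 10 genes and both labels, replicate 4 labelled Bmal1-/- was separated from the other 3 by more than Dixon's 95% limit for 4 values. These were Clec4f at 143 CPM, Vsig4 at 39.3 CPM, Cd5l at 150.0 CPM, Marco at 11.1 CPM and C1qa at 51.1 CPM. Chance flags about 1 in 20 groups, and the 5 are from a single library, so they are not separate events. Saa1, at 7751 CPM, and S100a8, at 15.2 CPM, were also highest in it, and their part in these values was not tested.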

How the results depend on the processing

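The depth limits calls for genes near the floor of 3 counts, and 4 libraries per label with 1 that stands apart limit the rest. The direction was lower for all 10 genes under all 18 alternatives. Clec4f, Vsig4, Timd4, Adgre1, Csf1r, Cd68 and Mrc1 kept their calls under every alternative, Cd5l and C1qa did not and Marco gained one. The count called lower was 9 under DESeq2, RLE, upper-quartile and library-size scaling, scaling without hepatocyte genes, a minimum of 10 counts, limma-voom and the likelihood ratio test, 8 without a filter, and 7 to 10 with a library left out. It was 7 without Bmal1+/+ replicate 1 or replicate 1, 2 or 3 labelled Bmal1-/- and 10 without replicate 4 labelled Bmal1-/-. Over all genes tested, 1893 of 14590 were called lower without Bmal1+/+ replicate 2, the fewest with a library left out. The most were 2502 of 14775, without replicate 4 labelled Bmal1-/-. With all libraries, 2177 of 14353 were called lower by library-size scaling and 2579 of 14353 by DESeq2. A minimum of 10 counts gave 2007 of 12597, and no filter gave 2053 of 28004. The count past the study's criterion was 4 to 7 with a library left out, the 7 being without replicate 4 labelled Bmal1-/-, and 6 with limma-voom. With limma-voom 2083 of 14353 genes tested passed it in either direction.

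Replicate numbers did not pair the libraries, since deviations of same-numbered libraries correlated between -0.0642 and 0.063. The library titled KO6 was taken as replicate 4 here and in the block, as its description gives. With the replicate block 8 of the 10 were called lower and 0 higher, 5 passed the study's criterion, and C1qa lost its call. In that fit 2064 of all 14353 genes were called lower and 1809 higher, and 2061 passed the criterion in either direction.

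The log2 ratio of the summed Kupffer cell genes to 1 shared gene differed between labels by 0.38 with Adgre1, 0.05 with Csf1r and 0.18 with Cd68 as that gene, and the ratio of both sums by -0.18 to -0.01 with a library left out. Exact permutation p-values of the Clec4f ratios with a library left out were 0.0286 to 0.0571 for Adgre1 (0.49 to 0.64) and Stab2 (-0.91 to -0.61), and 0.0286 to 0.0857 for Ptprc (0.45 to 0.79), each with 7 libraries.

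Of 1365 values of 77 named genes under the alternatives, 1265 kept direction and call, 72 lost a call, 13 gained one and 15 changed sign. With a library left out, log2 fold changes were -1.35 to 2.07 for S100a8, -1.53 to 1.63 for S100a9 and -1.59 to 6.13 for Saa1, the lowest without replicate 4 labelled Bmal1-/-, and -0.12 to 0.03 for Stab2, the highest without replicate 3 of that label. S100a9 was -0.28 with limma-voom and -0.08 with the replicate block, and Saa1 -0.55 with that block. Itga2b was 0.02 with library size only, 0.0 without a filter, 0.05 with limma-voom, 0.03 with the block and -0.13 to 0.18 with a library left out. The cause of these changes was not tested.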
